A study of Gallus gallus with 16 samples.

Results

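What diets E, F and H had in common against diet A in the jejunum of broiler chickens was measured as 1 difference per probe set, the mean of the diet means of E, F and H (12 birds) minus the mean of diet A (4 birds). All 16 arrays and all 20804 probe sets of the series entered this comparison, so it uses every bird of the study. Broilers are chickens bred for meat. The birds were male and were sampled on day 21, with 4 birds on each of the 4 diets, and each array carried jejunal RNA of 1 bird. The study's title names plant additives for feed, namely saponins and essential oils of oregano, thyme, rosemary and star anise. The labels give each diet only as a letter, so which additive or dose diet E, F or H held, and whether diet A held none, is not known here. The labels used here name neither strain, housing nor any other treatment.

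The jejunum is the middle segment of the small intestine, where most sugar, peptide, amino acid and fat absorption takes place. Its epithelium is renewed from crypts, where stem and progenitor cells divide, and the daughter cells move up the villus as absorptive enterocytes, mucus-secreting goblet cells and hormone-secreting enteroendocrine cells. Dividing cells hold much RNA for cell cycle proteins and ribosomes, while mature enterocytes hold RNA for brush border peptidases and nutrient transporters. Plant essential oils and saponins are fed to poultry as additives meant to aid growth and digestion.

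Levels below are deposited values read as log2 intensities, and a difference of 1 is a doubling in the pooled diets. The medians of the 16 arrays lay between 5.94 and 6.10, and the correlation between any 2 arrays across probe sets lay between 0.952 and 0.986. The tissue label was checked against RNA typical of jejunum, and the enterocyte markers from ANPEP to SLC15A1 below lay above the 98th percentile of probe sets by mean level. The diet A means were 12.77 for ANPEP, 12.44 for SLC5A1, 12.35 for APOA4, 12.22 for MTTP, 12.02 for FABP2, 10.93 for SLC15A1 and, for the intestinal transcription factors, 10.00 for CDX1 and 7.99 for CDX2, while VIL1 had no named probe set. The 12 measured exocrine pancreas markers averaged 5.67 to 5.96 in single birds and the 19 hepatocyte markers 4.58 to 5.20, against array lower quartiles of 4.45 to 4.61. Arrays are numbered in the sample titles, and each diet has 2 birds in a lower range (4 to 22) and 2 in an upper range (26 to 47). What the ranges stand for is not stated, so results are also given within each range. Replicate 2 of diet E and replicate 3 of diet H stood apart from the other birds of their diets. They had the lowest array weights in limma (0.54 and 0.602). Their levels of several gene lists lay with those of diet A, as given below. Diet H replicate 4 had the next lowest weight (0.712) and lay at the far end from diet A in several lists. Among the 12 pooled birds it had the lowest mean level of the cell cycle (5.27), cytosolic ribosomal (9.48) and macrophage (6.36) lists. Its level of the immediate early list (8.10) was the highest.

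No probe set passed limma's test of the pooled difference at an adjusted p under 0.05, so 0 of 20804 were called in either direction. The smallest adjusted p was 0.168, shared by 6 probe sets, of which 2 are named, PURG and TMEM86A, and 4 are not. Some of these 6 hold identical values, so that they make up 4 distinct profiles. At an unadjusted p under 0.05 there were 2104 probe sets (10.1%), 1064 higher (5.11%) and 1040 lower (5%) in the pooled diets. Taken as 1 probe set per named gene, 1114 of 11528 genes (9.66%) had an unadjusted p under 0.05, 553 higher (4.8%) and 561 lower (4.87%). The median difference over these genes was 0.01, the median absolute difference 0.12 and the median standard error 0.131, so a typical gene differed by no more than its error. Calls appeared when single birds were left out, 3 without diet A replicate 1 and 2 without diet F replicate 1. Because nothing passed over all birds, the values below describe these 16 birds.

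TMEM86A, which encodes an enzyme known in mammals to break down lysoplasmalogens, a class of ether lipids, had the largest difference among the 12 higher genes with the smallest p. Its level in the diet A birds was 9.52, 8.42, 8.86 and 8.88, and in the 12 birds of the other diets it ran from 9.53 over a median of 10.13 to 10.81. Every bird of E, F and H was above every bird of A, although the lowest of them, in diet F, was barely above the highest A bird. The difference was 1.23 ± 0.213 (SE; 95% interval 0.77 to 1.68), a 2.34-fold higher level, with a limma adjusted p of 0.168. It was of like size in each diet against the shared A birds, 1.31 in E, 1.104 in F and 1.27 in H.

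PURG, a member of the Pur family of single-stranded nucleic acid binding proteins, had the smallest p of all named genes, with a difference of 0.53 ± 0.085 (SE) and a limma adjusted p of 0.168. Its levels were 6.20, 6.08, 6.43 and 6.26 in diet A, 6.60, 6.59, 6.43 and 6.36 in diet E, 6.65, 6.80, 6.83 and 6.57 in diet F and 7.12, 7.19, 7.07 and 7.12 in diet H. The birds of E overlapped those of A, the birds of F lay above both, except for 2 of E above the lowest of F, and the birds of H lay above all others. The differences from A were 0.25, 0.47 and 0.88 for E, F and H, so the pooled value is a mean over differences of unequal size in these birds. With diet E left out of the pool the difference was 0.68, with a limma adjusted p of 0.0335. Diet E had the smallest of these differences, so leaving it out widens the pooled difference by construction. Without diet F or without diet H in the pool, 0 probe sets were called. The differences among E, F and H did not pass limma's F test (adjusted p 0.289).

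VEGFA, the growth factor that drives formation and permeability of blood vessels, had levels of 8.22, 7.88, 8.38 and 8.38 in diet A and of 8.46 (lowest), 9.11 (median) and 9.64 (highest) in the pooled diets. The groups did not overlap, and the difference was 0.81 ± 0.179 (SE), 1.76-fold, with a limma adjusted p of 0.304. RGCC, a regulator of cell cycle progression, was 6.48, 6.90, 6.55 and 6.90 in diet A and 7.06, 7.96 and 9.22 at the lowest, median and highest bird of the pool, a difference of 1.19 ± 0.323 (SE) with a limma adjusted p of 0.308. CCL20, a chemokine that draws lymphocytes and dendritic cells to the epithelium, was 5.79, 5.71, 5.90 and 6.11 in diet A and 6.13, 6.61 and 7.85 in the pool, a difference of 0.84 ± 0.256 (SE) with a limma adjusted p of 0.335. For RGCC and CCL20, too, no bird of the pool was as low as any bird of A, yet the pooled birds spread over more than the difference itself.

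MRPS10, a protein of the small subunit of the mitochondrial ribosome, was the gene with the smallest p among those lower in the pool. It was 7.09, 6.92, 6.84 and 7.16 in diet A and 6.19, 6.45 and 6.83 at the lowest, median and highest pooled bird. All 12 pooled birds lay below the 4 of A, the highest of them barely. The difference was -0.54 ± 0.108 (SE), 1.46-fold lower, with a limma adjusted p of 0.304, and it was -0.52, -0.63 and -0.48 in E, F and H. SLC51AL, annotated as like the alpha subunit of the organic solute transporter that exports bile acids from enterocytes in mammals, was 6.63, 6.85, 6.64 and 6.55 in diet A and 5.41, 5.96 and 6.51 in the pool. Its groups did not overlap either, and its difference was -0.70 ± 0.157 (SE), with a limma adjusted p of 0.304.

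**Figure D1:**
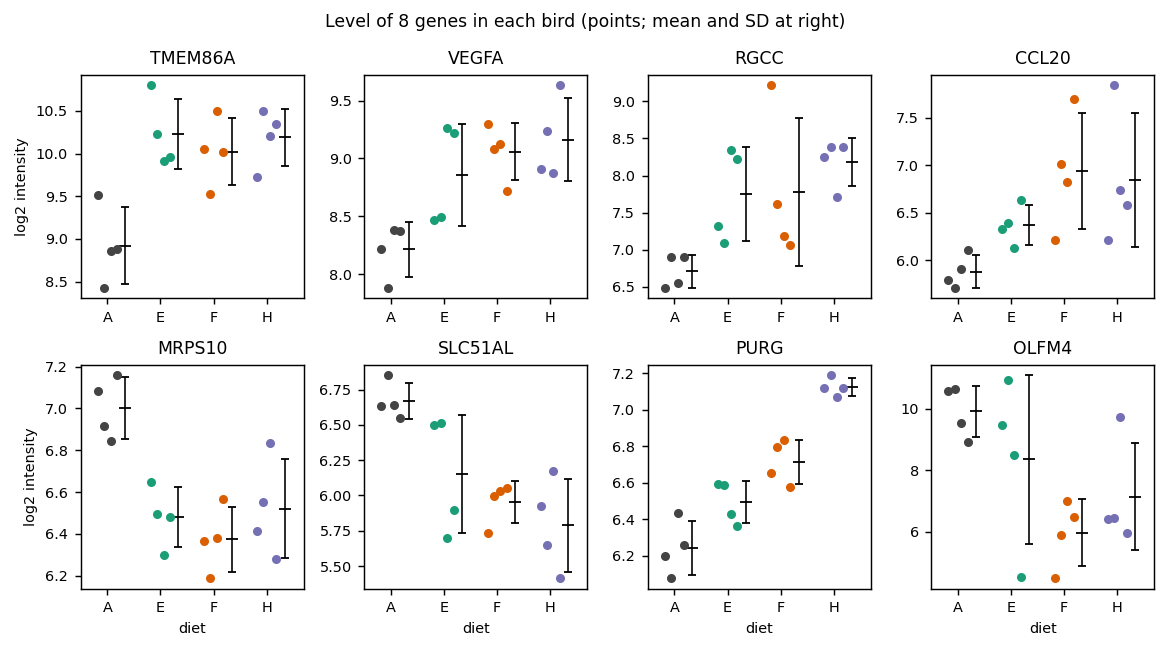
Log2 intensity (vertical axis, a separate scale per panel that does not start at 0) of 8 genes in each of the 16 birds, with the mean and SD of each diet's 4 birds at right. TMEM86A, VEGFA, RGCC and CCL20 are higher and MRPS10 and SLC51AL lower in all 12 birds of E, F and H than in the 4 of A, PURG steps up from A over E and F to H, and OLFM4 overlaps.

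The other 19 of the 24 genes with the smallest p had adjusted p-values of 0.304 in limma. Higher in the pool were CHKA by 0.97 ± 0.238 (SE), MIR1662 by 0.79, ERRFI1 by 0.66, OIT3 by 0.59, CLK1 by 0.53, MIR1755 by 0.51, SCN2B by 0.41, PRDM4 by 0.41 and VEPH1 by 0.39. The diet A mean of MIR1662 lay under the arrays' lower quartile, where background can make up much of a value. CHKA encodes choline kinase, the first step of phosphatidylcholine synthesis, ERRFI1 a feedback inhibitor of the EGF receptor, and CLK1 a kinase of splicing factors. Lower in the pool were DPT, with a difference of -1.35 ± 0.325 (SE), LOC427882 with -1.33, STK38 with -0.56, LOC426897 with -0.52, RPL23A with -0.50, TAF1D with -0.45, TOMM5 with -0.44, MARC1 with -0.43, URB2 with -0.39 and BRAT1 with -0.36. DPT encodes dermatopontin of the extracellular matrix, RPL23A a ribosomal protein, TAF1D a factor of RNA polymerase I, URB2 a ribosome assembly factor and TOMM5 a part of the mitochondrial protein import channel. The array holds 5 named probe sets for TAF1D, and their differences ran from -0.57 to 0.02.

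**Figure D2:**
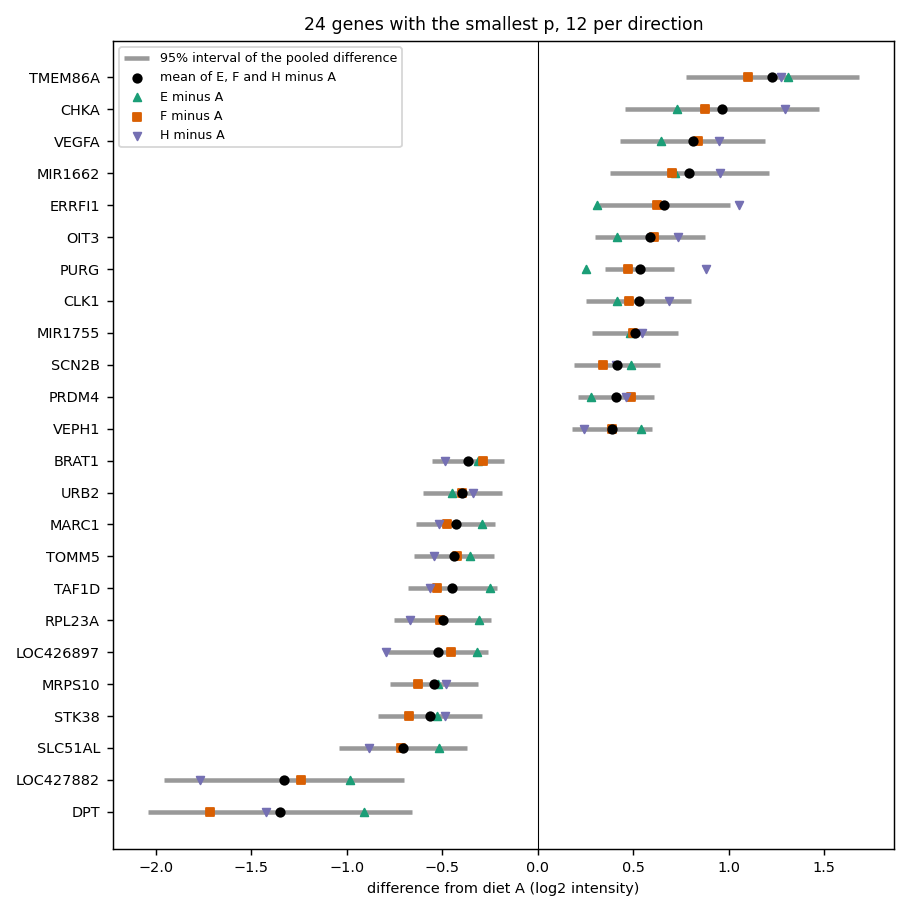
Difference from diet A (log2 intensity, horizontal axis) of the 24 genes with the smallest p, 12 per direction, with black points for the pooled difference, grey bars for its 95% interval and coloured symbols for each diet minus the shared A birds. For all 24 genes E, F and H lie on the same side of 0, which the choice by small p favours.

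Levels that do not overlap between the 12 pooled birds and the 4 of A were seen for 25 probe sets above A (0.12%) and 22 below it (0.106%), together 0.226% of all probe sets. With fewer birds fewer can overlap, and without diet A replicate 4 there were 90 above, without diet A replicate 3 107 below. On 1 probe set per named gene there were 26 such genes (0.226%), 11 above and 15 below, and all are named here, which was decided after their values were seen. Besides TMEM86A, VEGFA, RGCC, CCL20 and MIR1755, the genes above were MYOM2 (0.51), CHGB (0.45), TFEB (0.34), OC90 (0.27), NEK11 (0.23) and USP54 (0.20). TFEB is a transcription factor of lysosome formation and CHGB a granule protein of hormone-secreting cells. MYOM2, CHGB, OC90 and NEK11 had diet A means of 3.38, 3.07, 3.85 and 2.91, below the lower quartile of the arrays, where background can make up much of a value.

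Besides MRPS10, SLC51AL, URB2 and BRAT1, the genes below A in all 12 birds were HMCES (-0.50), ZDBF2 (-0.36), MIR193B (-0.34), OGFOD1 (-0.33), EXOSC8 (-0.30), UTP15 (-0.29), SLC25A28 (-0.28), CIPC (-0.28), HEATR6 (-0.21), BYSL (-0.18) and UBAC1 (-0.13). Some of these groups were barely separate. The lowest A bird and the highest pooled bird were at 6.5662 and 6.566 for BRAT1 and at 7.3571 and 7.3566 for CIPC. They were at 6.8205 and 6.8166 for HEATR6 and at 7.7134 and 7.7068 for BYSL. UTP15 and BYSL act in assembly of the small ribosomal subunit, EXOSC8 belongs to the RNA-degrading exosome that trims ribosomal RNA, OGFOD1 hydroxylates a protein of the small ribosomal subunit in mammals, and SLC25A28 imports iron into mitochondria. MIR193B, with a diet A mean of 3.91, lay under the arrays' lower quartile. UBAC1 had an unadjusted p of 0.078 in limma despite its separate groups. A second probe set of BYSL showed a difference of 0.15.

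The largest difference of any gene with an unadjusted p under 0.05 was that of OLFM4, a secreted protein that marks stem and progenitor cells of the crypt in mammals. Its level was 10.57, 10.65, 9.53 and 8.93 in diet A, 9.46, 10.94, 8.51 and 4.52 in E, 4.48, 5.90, 7.01 and 6.49 in F and 6.41, 6.45, 9.73 and 5.95 in H. The diet A birds were all high, while the pooled birds ranged from the highest value of all, in diet E replicate 2, to the lowest, in diet F. The difference was -2.77 ± 0.903 (SE; 95% interval -4.69 to -0.84), with a limma adjusted p of 0.35. It was -1.56, -3.95 and -2.79 in E, F and H.

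The other genes chosen for the size of their difference overlapped between the groups. AREG, a ligand of the EGF receptor, differed by 1.35 ± 0.407 (SE), and IL8L1, a chicken chemokine related to mammalian interleukin-8 that draws heterophils, by 1.30 ± 0.341 (SE). DSC1, a desmosomal cadherin, was 2.61, 6.22, 6.77 and 7.45 in diet A, and PMP22, a membrane protein of cell junctions and myelin, was 7.49, 9.07, 10.67 and 10.25. In both genes diet A replicate 1 was the lowest of all 16 birds, and without it the DSC1 difference dropped from 1.69 to 0.64 and that of PMP22 from 1.36 to 0.735. DCK2, a deoxynucleoside kinase, had a difference of -1.31 ± 0.455 (SE), while a second probe set of it showed -0.28. Limma's adjusted p was 0.335 for AREG, 0.304 for IL8L1, 0.419 for DSC1, 0.405 for PMP22 and 0.377 for DCK2.

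Genes of ribosomes, the cell cycle and early transcriptional responses were then read as lists. A list is described by how many of its measured members were higher or lower, beside the 52.8% higher and 47.2% lower among all 11528 genes, and by its median difference beside 0.01 for all genes. With an unadjusted p under 0.05 in limma, 4.8% of all genes were higher and 4.87% lower, together 9.66%. Over all probe sets, 2104 had such a p with all birds. There were 1511 without diet A replicate 1, 2093 without diet A replicate 3, 2561 without diet E replicate 2 and 2670 without diet H replicate 3. A list's count with a bird left out is to be read beside these. Leaving out the A bird farthest from the pooled birds narrows a difference by construction. In the list of cytosolic ribosomal proteins all 50 measured members were lower in the pool, 36 of them with an unadjusted p under 0.05 in limma, beside 4.87% lower with such a p among all genes. The median difference was -0.33, and single members ran from -0.71 to -0.14. RPL10A was 11.63, 11.14, 10.54 and 10.73 in diet A and 9.69, 10.29 and 10.96 at the lowest, median and highest pooled bird. That is a difference of -0.71, with -0.49 for RPL24 and -0.39 for RPS20.

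The mean level of the ribosomal list was 10.51, 10.26, 10.00 and 9.91 in the diet A birds, and 9.48, 9.79 and 10.35 at the lowest, median and highest pooled bird. Of the 12 pooled birds 10 lay below all 4 of A, and diet E replicate 2 lay above all but 1 of them. Medians against the shared A birds were -0.22 in E, -0.31 in F and -0.50 in H. The count rests on diet A replicate 1: without it 49 members were lower, 11 with an unadjusted p under 0.05, and the median was -0.23. Members of the ribosome share regulation, so they are not independent of each other.

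Other genes of protein synthesis and respiration were lower to a smaller extent. Of 58 mitochondrial ribosomal proteins 52 were lower, 9 with an unadjusted p under 0.05, with a median of -0.17. MRPL13 followed MRPS10 with a difference of -0.50, at a pooled mean of 4.32 under the arrays' lower quartile. Of 50 nuclear-encoded subunits of oxidative phosphorylation 47 were lower, 6 with such a p, with a median of -0.13. COX7A2, a subunit of cytochrome c oxidase, differed by -0.30, and UQCRHL, a hinge protein of the cytochrome bc1 complex, by -0.45. Of 39 translation factors 30 were lower, 6 with such a p, with a median of -0.08. EIF3B, a scaffold of the initiation complex that joins messenger RNA to the small ribosomal subunit, differed by -0.42 and EEF1D by -0.33. Without diet A replicate 1 the members with an unadjusted p under 0.05 were 5 of the mitochondrial ribosomal list, 1 of oxidative phosphorylation and 1 of translation, and without diet A replicate 3 the first of these was 18. Diet A replicate 1 had the highest mean level of diet A in each of these lists, so leaving it out narrows the differences by construction. Diet A replicate 3 had the lowest mitochondrial ribosomal level of diet A, so leaving it out widens that difference. The mean level of the mitochondrial ribosomal list lay below all A birds in 10 of the 12 pooled birds, and that of oxidative phosphorylation in 9.

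In the list of cell cycle and DNA replication genes 65 of 68 members were lower in the pool, 31 with an unadjusted p under 0.05, with a median of -0.52. MCM5, a subunit of the replicative helicase, was 7.38, 7.01, 7.04 and 6.54 in diet A and 5.52, 6.20 and 7.09 at the lowest, median and highest pooled bird, a difference of -0.78 ± 0.244 (SE). PLK4, the kinase of centriole duplication, differed by -0.78, KIF2C, a kinesin that shortens spindle microtubules, by -0.77, and CCNE2, a cyclin of entry into S phase, by -0.57. KIF2C and CCNE2 had pooled means of 4.50 and 4.49, at the arrays' lower quartile. Limma's adjusted p was 0.335 for MCM5, 0.385 for PLK4, 0.364 for KIF2C and 0.385 for CCNE2.

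The mean level of the cell cycle list was 6.52, 6.33, 6.66 and 6.02 in diet A, and among the pooled birds it was 6.66 in diet H replicate 3, 6.47 in diet E replicate 2 and between 5.27 and 6.01 in the remaining 10. These 10 lay below every A bird, and the other two lay within the range of A. Medians were -0.49, -0.47 and -0.48 in E, F and H. The number of members with an unadjusted p under 0.05 moved widely with single birds. That number ran from 6 without diet A replicate 1 and 10 without diet A replicate 3 to 52 without diet H replicate 3. Over all probe sets the same settings gave 1511, 2093 and 2670, beside 2104 with all birds. The list median stayed between -0.65 and -0.41 with single birds left out. Diet H replicate 3 had the highest cell cycle level of the pool, so leaving it out widens the difference by construction. Diet A replicates 3 and 1 had the highest levels of diet A, so leaving either out narrows the difference by construction.

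The crypt stem and progenitor list, of which OLFM4 is a member, had 19 of 24 members lower, 4 with an unadjusted p under 0.05, and a median of -0.16. SLC12A2, the sodium, potassium and chloride cotransporter of secreting crypt cells, was 6.62, 6.38, 6.31 and 6.19 in diet A and 5.11, 5.79 and 6.70 in the pool, a difference of -0.60. The members with such a p were 2 without diet A replicate 1 and 9 without diet E replicate 2. Diet E replicate 2 had the highest crypt level of the pool, so leaving it out widens the difference by construction. Diet A replicate 1 had the highest crypt level of diet A, so leaving it out narrows the difference by construction. The mean level of the crypt list lay below all A birds in 9 pooled birds, and above all of them in diet E replicate 2. In a sample of whole jejunum, fewer cells of a type and less RNA per cell cannot be told apart.

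**Figure D3:**
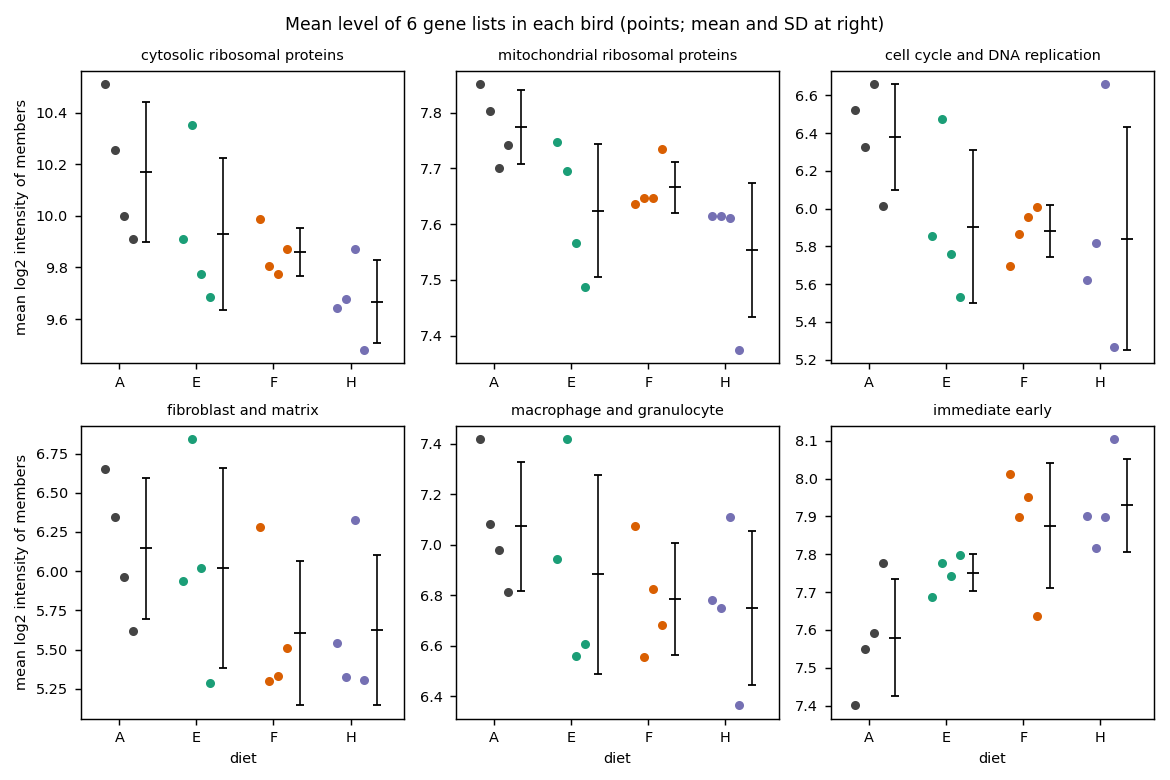
Mean log2 intensity of the members of 6 gene lists (vertical axis, a separate scale per panel that does not start at 0) in each of the 16 birds, with the mean and SD of each diet's 4 birds at right. In the lists of cell cycle, matrix and macrophage genes, 1 bird of E and 1 of H lie above the others of their diet and reach the A birds. Further pooled birds also reach the A birds in the matrix and macrophage lists, where only 7 of the 12 lie below all of A, against 10 in the cell cycle list. The immediate early list is higher in 9 pooled birds than in all of A.

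Lists of matrix, muscle, macrophage and T cell genes also held more lower than higher members, while enteric neuron genes split into 9 higher and 9 lower and erythrocyte genes into 5 and 5. Of 42 fibroblast and matrix genes 31 were lower, 4 of them with an unadjusted p under 0.05 and 1 higher with such a p, and the median was -0.34. In either direction, members with such a p made up 11.9% of the list, beside 9.66% of all genes. Without diet A replicate 1 the median was -0.21 and without diet A replicate 4 it was -0.51. The lower members with such a p were 2 without diet A replicate 1, 10 without diet E replicate 2 and 9 without diet H replicate 3. The last 2 birds had the highest matrix levels of the pool, so leaving either out widens the difference by construction. Diet A replicate 1 had the highest matrix level of diet A, so leaving it out narrows the difference by construction. DPT was 6.02, 5.74, 5.60 and 4.67 in diet A and 3.33, 3.94 and 5.45 at the lowest, median and highest pooled bird, and 9 pooled birds lay below all of A. OGN, a small proteoglycan, differed by -1.13, MMP2, a collagen-degrading protease, by -1.29, and POSTN, a matrix protein, by -0.31. DPT, OGN and POSTN had pooled means of 4.16, 4.45 and 3.13, at or under the arrays' lower quartile. The mean level of the list spread from 5.62 to 6.65 among the A birds and from 5.28 to 6.84 among the pooled ones, more than the difference of -0.39 between the means.

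Of 11 smooth muscle genes 9 were lower, 0 with an unadjusted p under 0.05, with a median of -0.23 that was -0.12 without diet A replicate 1. Of 17 macrophage and granulocyte genes 15 were lower, 1 with such a p, with a median of -0.23 that was -0.08 without diet A replicate 1. HPGDS, a prostaglandin D synthase of blood-derived cells, was 11.68, 11.75, 11.10 and 11.57 in diet A and 9.96, 10.97 and 11.36 in the pool, a difference of -0.69, and TIMD4, a receptor by which macrophages take up dying cells, differed by -0.31. Of 32 T and NK lymphocyte genes 28 were lower, 0 with an unadjusted p under 0.05. The median was -0.18, but -0.03 without diet A replicate 3. The only member with such a p, BCL11B, a transcription factor of T cells, was higher by 0.23. CCR7, the receptor by which lymphocytes enter lymphoid tissue, differed by -0.46. Of 15 endothelial genes 9 were lower (median -0.05) and of 17 B lymphocyte genes 11 (median -0.06, but 0.05 without diet A replicate 1).

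Levels of the matrix, macrophage and crypt lists were highest among the 12 pooled birds in diet E replicate 2 and diet H replicate 3, the birds that also had the highest cell cycle levels of the pool. The mean matrix level was 6.84 and 6.33 in them, against 5.28 to 6.28 in the other 10 pooled birds, and the mean macrophage level 7.42 and 7.11, against 6.36 to 7.08. Whether the amount of crypt, lamina propria or muscle tissue in a sample had a part in the lower cell cycle and ribosomal levels was not tested.

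Immediate early genes, whose transcription rises within minutes of a stimulus or of handling tissue, were higher in the pool in 20 of 24 members, 9 with an unadjusted p under 0.05 and 0 lower with such a p, beside 4.8% higher among all genes. The median was 0.20, with 0.14, 0.22 and 0.27 in E, F and H. It was 0.33 within the lower and 0.15 within the upper range of titles. JUN was 7.98, 7.99, 8.49 and 8.66 in diet A and 8.30, 8.93 and 9.22 at the lowest, median and highest pooled bird, a difference of 0.57. ERRFI1 was 8.36, 8.45, 9.03 and 9.24 in diet A and 8.95, 9.38 and 10.02 in the pool, NR4A2 differed by 0.43 and CITED2 by 0.30. The ERRFI1 difference was 0.31 in E, 0.62 in F and 1.05 in H. The mean level of the list was 7.40, 7.55, 7.59 and 7.78 in diet A, and 9 pooled birds lay above all 4. Without diet A replicate 1 the members with an unadjusted p under 0.05 were 5, and the median was 0.19. The time between death and sampling is not given in the labels, and its part was not tested.

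The EGF receptor list had 11 members higher and 11 lower, with a median of 0.01. Its 4 members with an unadjusted p under 0.05 were all higher, among them AREG and ERRFI1. AREG was 4.75, 4.79, 6.18 and 6.34 in diet A, with the lower range of title numbers listed first, and 5.62, 6.89 and 7.71 at the lowest, median and highest pooled bird. Within the lower range of titles its difference was 1.94 and within the upper range 0.76. The inflammatory list had 28 of 46 members higher, 5 with an unadjusted p under 0.05 and 0 lower with such a p, with a median of 0.07. These 5 made up 10.9% of the list, beside 9.66% of all genes in either direction and 4.8% higher. IL8L1 was 4.41, 5.09, 5.31 and 5.79 in diet A and 5.06, 6.31 and 7.86 in the pool, and 11 of the 12 pooled birds lay above all of A. Without diet A replicate 1 those with such a p were 3. In the interferon response list 12 of 35 members were higher. Its median was -0.06 in the pool, -0.30 in E and 0.04 in both F and H. The pooled median was 0.22 among birds with lower title numbers and -0.39 among those with upper ones, so the direction differed between the ranges. It was -0.22 without diet A replicate 1 and 0.00104 without diet A replicate 3.

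Lists of mature enterocyte genes had pooled medians between 0.05 and 0.16, while some single genes differed by more. The mean level of such a list had an SD within diets from 0.10 (amino acid and peptide transporters) to 0.20 (peptidases). Of 19 brush border and luminal peptidases 14 were higher, 4 with an unadjusted p under 0.05, with a median of 0.16. The mean level of this list lay above all A birds in 11 of the 12 pooled birds. In diet E replicate 2 it lay below all of A, at 9.25. The SD of the list level was 0.38 in E, against 0.06 in A, 0.08 in F and 0.12 in H. ACE, an enzyme that removes dipeptides from the ends of peptides, was 11.10, 11.19, 11.13 and 11.18 in diet A, and 11 pooled birds lay between 11.52 and 12.29, above all of A, while diet E replicate 2 was below all of A at 10.95. The differences of the meprin subunits were 0.75 ± 0.232 (SE) for MEP1B and 0.85 ± 0.324 (SE) for MEP1A, and FOLH1, a carboxypeptidase that frees glutamate from folate, differed by 0.55. In MEP1B, MEP1A and FOLH1, too, diet E replicate 2 was the only pooled bird below all of A.

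Of 28 amino acid and peptide transporters 18 were higher, 4 with an unadjusted p under 0.05, and the median was 0.13. In single diets the median was 0.06 in E, -0.02 in F and 0.21 in H, so diet F did not share the pooled direction. Leaving out diet A replicate 1 left 0 with such a p, and the median was 0.05. SLC15A1, the brush border carrier of di- and tripeptides, was 10.33, 10.79, 11.21 and 11.39 in diet A and 11.01, 11.43 and 11.77 at the lowest, median and highest pooled bird. Its difference of 0.47 ± 0.172 (SE) had a limma adjusted p of 0.398, and was 0.76 within the lower and 0.18 within the upper range of titles. SLC6A19, the main sodium-coupled carrier of neutral amino acids, was 9.89, 10.35, 10.81 and 11.13 in diet A and 10.50, 11.05 and 11.56 in the pool, a difference of 0.50. SLC38A3 differed by 0.44 and SLC36A4 by 0.30. For SLC15A1 and SLC6A19 the 2 lower-range birds of A were the low ones, and leaving out diet A replicate 1 gave 0.27 and 0.28.

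SLC5A1, the sodium-coupled glucose carrier, was 12.38, 12.30, 12.68 and 12.39 in diet A and 12.22, 12.60 and 12.89 in the pool, a difference of 0.12 with a 95% interval of -0.13 to 0.36. In the sugar list 8 of 13 members were higher, and the median was 0.05. It was -0.02 and -0.08 within the lower and upper title numbers and 0.02 without diet E replicate 2. The list held G6PC, which frees glucose from glucose phosphate, with 0.25 and PCK1, an enzyme of glucose synthesis, with 0.76. For G6PC the difference was 0.27 in E, 0.48 in F and 0.01 in H, so diet H did not share it. Of 24 genes of lipid absorption 22 were higher with a median of 0.11, but only 1 with an unadjusted p under 0.05. That was SCARB1, a receptor for lipoproteins and carrier of cholesterol, at 10.02, 10.16, 11.38 and 10.75 in diet A and 10.67, 11.39 and 11.85 in the pool, and without diet A replicate 1 the count of higher genes in this list was 16 and the median 0.04. ACSL3, an enzyme that activates fatty acids, was higher by 0.34. Of 16 calcium and phosphate genes 11 were higher, 1 with an unadjusted p under 0.05, and the median was 0.14. CASR, the calcium-sensing receptor, was higher by 0.30 and ATP2B4, a calcium pump of the plasma membrane, by 0.27. The diet A mean of CASR was 4.36, under the arrays' lower quartile, and a second probe set of it showed a difference of 0.04.

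Among secretory and barrier genes, the goblet cell list had 17 of 22 members higher, 6 with an unadjusted p under 0.05 and 1 lower with such a p, and the median was 0.10. Leaving out diet A replicate 1 left 3 higher with such a p. FCGBP, a protein of the mucus gel, was 11.48, 11.96, 12.07 and 12.40 in diet A and 12.12, 12.60 and 13.21 at the lowest, median and highest pooled bird, a difference of 0.56. C1GALT1, which extends the sugar chains of mucins, was the lower one, with -0.48. Of 30 tight junction and adhesion genes 25 were higher with a median of 0.11, yet 0 of them had an unadjusted p under 0.05 (5 without diet A replicate 4). Over all birds the only member with such a p was a lower one, MARVELD3, a membrane protein of tight junctions, with -0.24. CTNNA1, which links cadherins to actin, differed by 0.17. The enteroendocrine list had 16 of 24 members higher, 3 with an unadjusted p under 0.05 and 1 lower with such a p. Its median was 0.07 in the pool and -0.01 in diet F. Single members ran from -0.55 to 0.48, and 8 of the 24 were lower. CHGB and SCG2 (0.48) were among the higher ones. The diet A mean of CHGB, 3.07, lay under the arrays' lower quartile. In both genes diet E replicate 3 (4.04 and 7.70) lay far above the other birds of its diet.

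The remaining lists had medians between -0.04 and 0.17. Xenobiotic metabolism (median 0.07, but -0.01 without diet A replicate 1; 27 of 48 higher) held GSTA2, a glutathione transferase, with -0.91 ± 0.236 (SE) and SULT, a sulfotransferase, with 0.34. The antioxidant list (median -0.04, 22 of 37 lower) held TXNRD2, the mitochondrial thioredoxin reductase, with -0.41, and GCLM, the modifier subunit of glutathione synthesis, with -0.33. Pyrimidine breakdown (median 0.09) held DPYS with 0.46 and AGXT2 with 0.30. Its median was -0.01 in E and in F and 0.18 in H, and it was 0.02 without diet A replicate 1 and 0.20 without diet E replicate 2. The diet A and pooled means of both SULT and AGXT2 lay under the arrays' lower quartile. The list of plasmalogen and ether lipid metabolism, which contains TMEM86A, had a median of -0.03, with 6 of 13 members higher, and CEPT1, which makes phosphatidylcholine and phosphatidylethanolamine, came second by p at 0.27. Circadian clock genes (8 of 14 higher) had a median of 0.17 and epithelial identity genes (12 of 15 higher) one of 0.15. Without diet A replicate 1 these were 0.10 and 0.09, without diet A replicate 4 the second was 0.25, and without diet A replicate 2 the first was 0.08. Of the epithelial identity genes, 1 was higher and 1 lower with an unadjusted p under 0.05. Their median was 0.29 within the lower and 0.04 within the upper range of titles. Both heat shock genes (16 of 27 higher) and hepatocyte genes (15 of 19 higher, 3 with an unadjusted p under 0.05 and 0 without diet F replicate 2) had one of 0.08. For heat shock it was -0.01 in E, -0.02 in F and 0.02 in H, and 0.02 in the pool without diet A replicate 1. Medians were 0.02 for exocrine pancreas, 0.01 for fatty acid oxidation, -0.01 for sterol synthesis and for folding in the endoplasmic reticulum, and -0.02 for the proteasome. Those of enteric neuron and erythrocyte genes were under 0.01 in size.

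**Figure D4:**
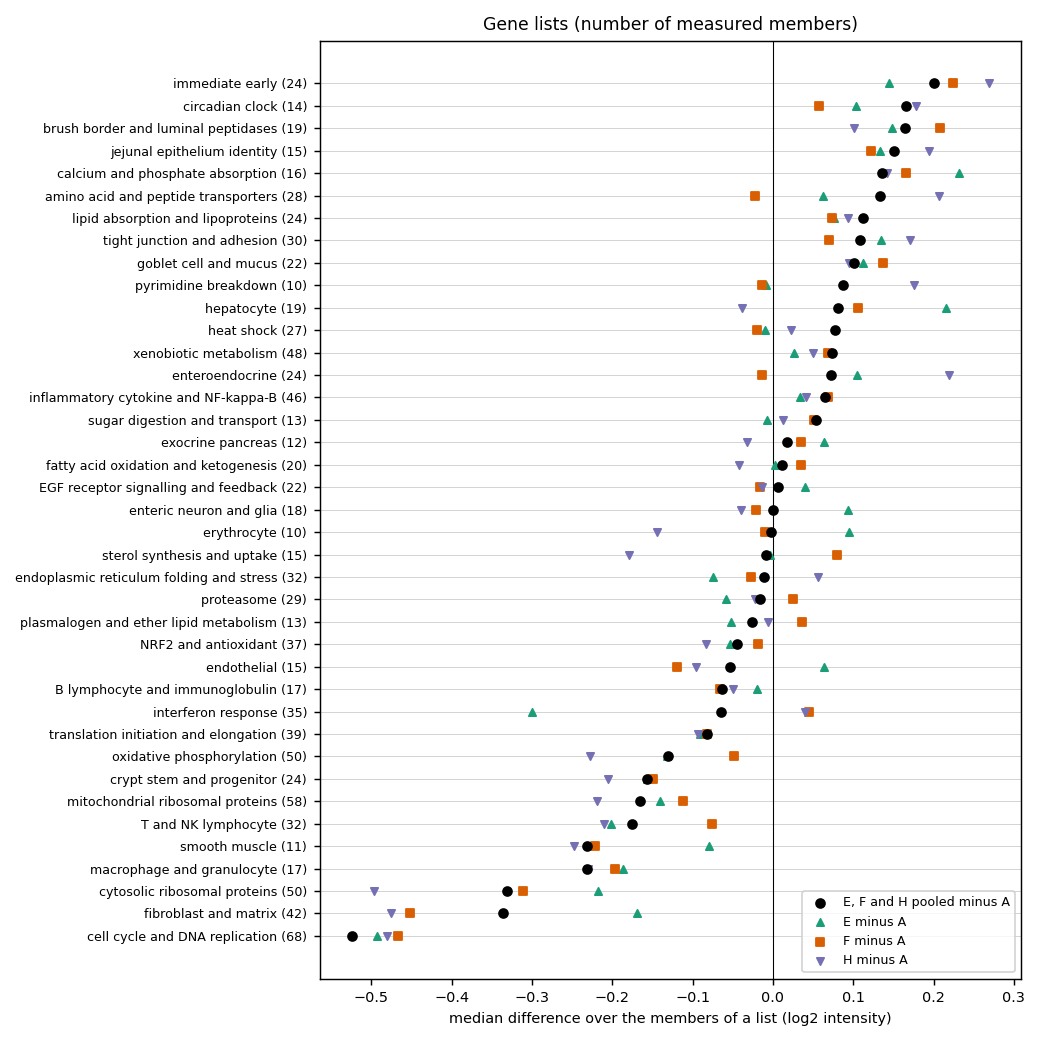
Median difference from diet A over the measured members (log2 intensity, horizontal axis) of the 39 gene lists, with the number of members in brackets; black points show E, F and H pooled, coloured symbols each diet minus the shared A birds. The cell cycle, matrix and cytosolic ribosomal lists lie lowest, at -0.52, -0.34 and -0.33, and the immediate early list highest, at 0.20.

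How far E, F and H differed among themselves was asked with limma's F test, whose contrasts do not involve diet A. It called 0 of 20804 probe sets, and 1148 (5.52%) had an unadjusted p under 0.05. The smallest adjusted p was 0.289, for PURG. Next among named genes were LOC420748, at 3.38, 2.98 and 2.86 in E, F and H (adjusted p 0.417 in limma), ASPA, which splits N-acetylaspartate, at 5.84, 6.93 and 7.57 (0.818), and ABHD11 at 6.62, 6.87 and 6.30 (0.83). The LOC420748 levels lay under the arrays' lower quartile. ASPA had a pooled difference of only -0.18, made of -1.12 in E, -0.02 in F and 0.61 in H. TMEM86A, in contrast, had an unadjusted p of 0.711 in this test, and its 3 diet means were 10.23, 10.02 and 10.19.

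The pooled difference was also formed within each range of title numbers, which share no birds, with 2 birds of A and 6 of the pool in each. Over the 11528 genes the differences were correlated with r = 0.243 and rho = 0.237, which is a description over genes that are not independent. TMEM86A differed by 1.17 among the lower and 1.29 among the upper numbers, MRPS10 by -0.56 and -0.53, SLC51AL by -0.69 and -0.72, VEGFA by 0.86 and 0.76 and RGCC by 1.29 and 1.09. CHKA differed by 1.45 and 0.48, ERRFI1 by 0.99 and 0.34 and PMP22 by 2.41 and 0.32, so these rested mainly on the lower range. The cell cycle list had medians of -0.53 and -0.47, the cytosolic ribosomal list -0.48 and -0.21, and the matrix list -0.68 and -0.12.

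**Figure D5:**
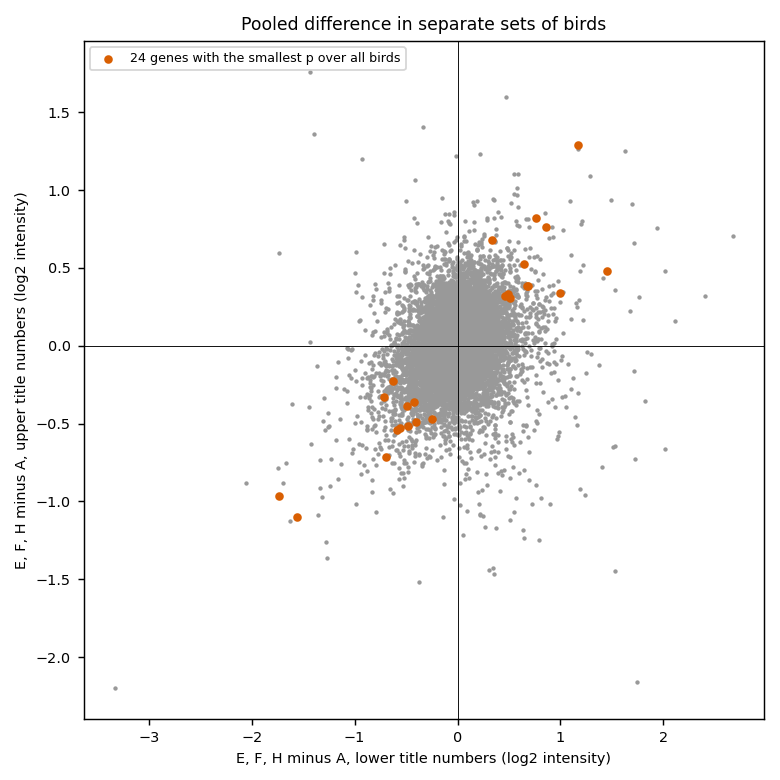
Pooled difference of each of the 11528 genes among birds with upper title numbers (vertical axis) against that among birds with lower title numbers (horizontal axis), both in log2 intensity, with the 24 genes of smallest p in orange. The grey cloud is only loosely aligned (r = 0.243), and the orange genes lie in the corners where both ranges agree in sign, as a choice by small p over all birds brings with it.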

How the data were processed

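The authors hybridised biotin-labelled copies of total RNA, made with the Ambion WT kit, to 1-colour Affymetrix arrays, per the labels' protocols. The deposited values, between 0.79 and 14.5, were read as log2 intensities because of their range; GCOS 1.1.1 is named per the submitters' processing notes. For the log base, summarization, normalization and filters the entry is: not given in the sources used here. Low values were kept. Of the probe sets, 12300 had 1 symbol, 256 several and 8248 none in GEO's platform annotation, and 11031 genes were matched to RefSeq by number. A gene is represented by its probe set with the highest mean. Identical profiles (1644 probe sets) were kept.

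The 4 diet means were estimated together over the 16 arrays in R 4.3.3 with limma 3.58.1 (lmFit, eBayes; 2-sided), with Benjamini-Hochberg adjustment over all 20804 probe sets and a threshold of 0.05; the fit was tested on simulated data. Figures used Python 3.11.15 and matplotlib 3.10.9. The design text counts 4 chickens per dietary group, so n counts birds; whether birds shared a pen is not given. Named were the 12 genes per direction with the smallest p, the 4 with the largest difference among those without overlap and among those with p under 0.05, up to 4 members of a list by p, SLC5A1, SLC15A1 and OLFM4, and the 4 smallest p among E, F and H. Comparison, lists and genes were chosen with earlier results of these data known. Alternatives covered scaling, dim probe sets, identical profiles, moderation, array weights, title numbers, single diets and single birds. Of the 32 alternatives run, 31 were planned and 1, without both diet E replicate 2 and diet H replicate 3, was added after the data were seen.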

Additional observations from a re-analysis of the deposited data

Results flagged for a closer look

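In each diet, 1 bird can lie far from the other 3. Of 432 groups of 4 birds, over the 108 named genes, 33 (7.64%) had a bird set apart by Dixon's test at the 95% level, which chance does in about 1 group in 20. There were 5 in diet A, 7 in E, 10 in F and 11 in H.

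In diet A these birds were APOA4 in replicate 4 (12.76), HMCES in replicate 1 (7.496), KIF2C in replicate 4 (4.73), and MIR1662 (3.95) and VEPH1 (4.90) in replicate 3. In diet E they were BYSL (7.45), CHGB (4.04), MIR1755 (5.95) and SCG2 (7.70) in replicate 3, BCL11B (8.86) and HEATR6 (6.44) in replicate 4, and PCK1 in replicate 2 (8.17).

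In diet F they were ABHD11 (6.71), CASR (5.04) and USP54 (8.20) in replicate 3, ATP2B4 (7.01), HPGDS (11.36), JUN (8.30) and PMP22 (8.998) in replicate 4, CEPT1 (10.11) and TFEB (6.81) in replicate 2, and MARVELD3 in replicate 1 (7.26). In diet H they were ATP2B4 (8.23), BYSL (7.38), DSC1 (8.85), HEATR6 (6.61), MIR1662 (5.11) and MYOM2 (4.998) in replicate 4, ASPA (7.88), MARC1 (8.21) and PRDM4 (8.80) in replicate 1, and OGN (5.89) and OLFM4 (9.73) in replicate 3. For MYOM2 the difference was 0.40 without diet H replicate 4, and for HMCES it was -0.41 without diet A replicate 1.

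ASPA was the gene whose birds moved in opposite ways: all 4 of diet E lay below the diet A mean and all 4 of diet H above it, with differences of -1.12 and 0.61. Limma's F test among E, F and H gave it an unadjusted p of 0.000865, which did not pass after adjustment (0.818).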

How the results depend on the processing

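No paired analysis was possible because the labels give no replicate numbers shared between diets. Of 32 alternatives, 31 were planned. The pooled test called 0 probe sets over all birds, and also with array weights, and under all alternatives but these: 2 with title numbers as a covariate (both higher, 1 profile), 1 with diet E left out of the pool (PURG), 0 to 3 over leaving out 1 bird (3 without diet A replicate 1, 2 without diet F replicate 1; 0 to 2 higher), and 66, 14 of them higher, with diet E replicate 2 and diet H replicate 3 both left out. That last alternative was chosen after seeing the data: the birds were picked for their low array weights and also because their gene list levels were seen to lie nearest to diet A. They were thus picked in part by the outcome, leaving them out widens the difference by construction, and the 66 calls are no evidence of a diet effect. It raised the unadjusted count from 2104 to 3195 and the probe sets without overlap to 97 above and 180 below. Leaving out 1 bird gave 26 to 90 above (78 without diet A replicate 1, 90 without diet A replicate 4) and 22 to 107 below (107 without diet A replicate 3), as fewer birds overlap less. There were 16 above with the lowest 25% of probe sets left out and 39 below with median centring. PURG differed least from A in diet E, so its call without that diet in the pool follows a difference widened by construction. Among E, F and H, the unadjusted count was 2124, not 1148, with the title range as a block. The smallest adjusted p was 0.128 for 2 groups without a mean per diet, 0.0607 with the range as a block and 0.607 when neighbouring title numbers formed a random block (correlation 0.173). Over these alternatives the sign turned for 5 of the 108 named genes: ASPA (0.29 without diet E in the pool), SLC5A1 (-0.0114) and FABP2 (-0.0145) with title numbers as covariate, CDX1 (0.0252 with that covariate, 0.0478 in the lower range only, 0.0413 without diet H in the pool) and MTTP, whose difference was near 0 (-0.000768 with median centring, -0.0831 with the covariate, -0.117 in the upper range only, -0.0526 without diet H in the pool, -0.0998 to 0.068 over leaving out 1 bird). With 4 birds of A, precision is limited (median standard error 0.131).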

Other observations

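Of the 56 probe sets with an unadjusted p under 0.001 in the pooled comparison, 28 higher and 28 lower, 31 have no gene symbol in the annotation used. Differences beyond 1 in size were found for 76 probe sets, 34 higher and 42 lower.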
